A study of Mus musculus with 4 samples.

Results

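The genes described here carry newly made proteins into the endoplasmic reticulum (ER) and move them on to and back from the Golgi. There were 44 of them among 17305 named genes with a probe on the arrays, and they were followed in the pancreas of Cyp11a1 knockout and wild-type mouse embryos. Members were the genes of 3 groups: ER entry (21 genes: the translocon, the signal recognition particle and its receptor, the translocon-associated proteins and the signal peptidase), COPII (13 genes: the coat and its cargo receptors) and COPI (10 genes: the coat and the KDEL receptors). A probe was assigned to a gene through the RefSeq transcript that the array design gives it, and where a gene had several probes the brightest was used. Of the 44 members, 43 had a probe and 42 could be tested. No probe was matched to Sec31a, the outer COPII coat partner of Sec13, and the single probe of Srp14, a subunit of the signal recognition particle, was usable on only 2 arrays.

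Each of 4 two-colour arrays held labelled cDNA of E18.5 pancreas, from 1 knockout and 1 wild-type extract. Both genotypes were on the C57BL/6JNarl strain. The series title names the knocked-out gene as Cyp11a1, the enzyme that makes pregnenolone from cholesterol. The labels do not say how the allele was made, whether embryos were pooled for an extract or whether they were littermates. Knockout was labelled red and wild type green on all 4 arrays, so an effect of the dye and an effect of the genotype cannot be told apart. Values are log2 ratios of knockout over wild type, a value of 0 meaning equal signal, with the standard error of the limma fit over 4 arrays (SE, n = 4) unless a smaller n is given.

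Proteins with a signal peptide are recognised at the ribosome by the signal recognition particle, handed to its receptor and threaded through the Sec61 channel, where the signal peptidase removes the signal. COPII coats then bud vesicles from the ER towards the Golgi, and COPI coats return escaped ER proteins, which the KDEL receptors bind, in the other direction. The exocrine pancreas is a classical tissue for this pathway because acinar cells secrete digestive enzymes in large amounts.

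All 42 tested members were well above background: 41 were so in both channels of every array, and the COPII coat gene Sec24d on the 3 arrays where it was usable. Their median log2 signal was 12.01, against 9.31 over all 15523 genes tested. Signals were lower in green than in red on every array before normalisation (median intensity 163 to 224 in green and 304 to 467 in red). The probe of the targeted gene Cyp11a1 had a log2 ratio of -0.16 ± 0.070, which did not pass the test (adjusted p = 0.164 by limma), and read -0.19, -0.40, 0.013 and -0.072 on arrays 1 to 4. Whether that probe lies in the deleted part is not given, so this value does not check the labels. All 14 acinar and 11 tested islet markers were above background in both channels of all arrays. So were all tested duct, mesenchyme, endothelium, red cell and leukocyte markers, and 4 of 6 tested hepatocyte markers. The remaining hepatocyte markers, Apob and Ttr, were above background in both channels of the 3 arrays where they were usable. Detection above background therefore does not tell the labelled tissue from others.

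Over the pathway, 6 of the 42 tested members passed an adjusted p of 0.05, which is 14.3%, against 14.6% of all genes tested. Of these members 4 were higher in knockout pancreas, where 9.45% of all genes were, and 2 were lower, where 5.11% of all genes were. The share of members called was thus close to that of the rest of the array. The members that rose were Sec61b and Sec61g, the small subunits of the protein channel, Srp19 of the signal recognition particle and Ssr2 of the translocon-associated complex. The members that fell were Sec23a and Sec24c, both of the inner COPII coat. No COPI member passed the test, and 2 of 10 had an unadjusted p under 0.05 by limma, against 4777 of all 15523 genes tested. Changes were small with the loess normalisation used here: the log2 ratios of the 42 members ran from -0.36 to 0.40. The 95% interval lay within 1.5-fold in either direction for 41 of them, the exception being Sec11c. Sizes depended on the scale: Sec61b and Sec61g were at 0.90 and 0.93 with median centring. Relative to the median of all genes on that scale they were at 0.645 and 0.68.

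**Figure D1:**
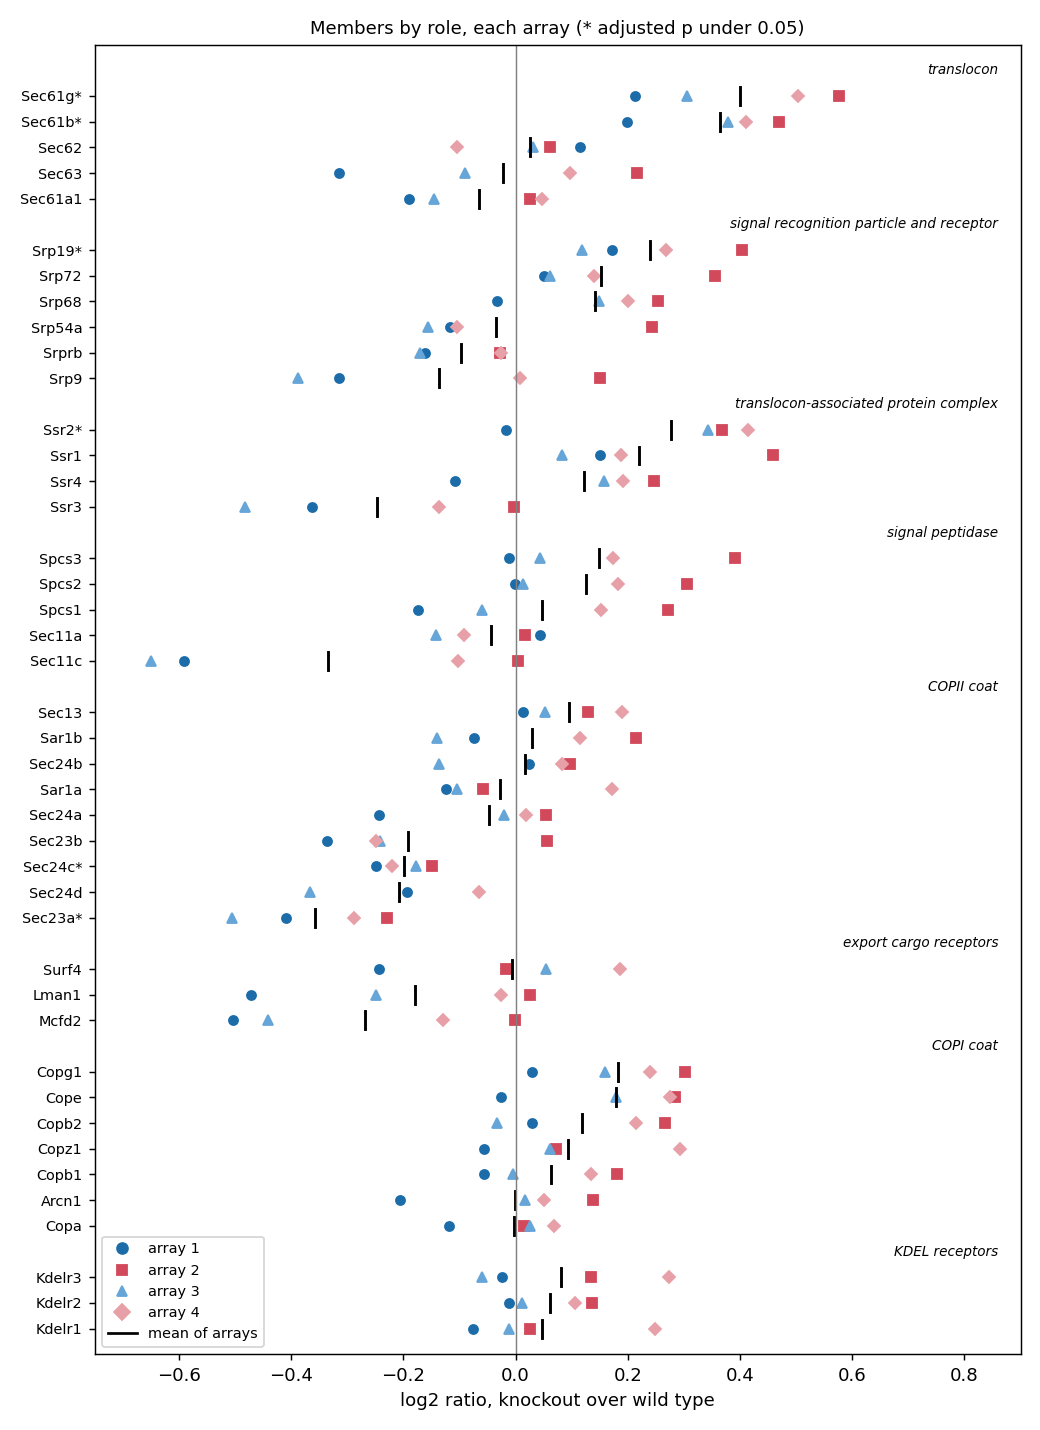
Log2 ratio of knockout over wild type (horizontal axis) for each of the 42 tested members, grouped by role, with 1 symbol per array and a black bar at the mean of the arrays. Sec61b and Sec61g lie to the right of 0 on all 4 arrays, Sec23a and Sec24c to the left on all 4, and in most other rows arrays 1 and 3 lie to the left of arrays 2 and 4.

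The Sec61 channel consists of a large pore-forming subunit, encoded by Sec61a1, and 2 small subunits, Sec61b and Sec61g. Sec61b had log2 ratios of 0.20, 0.47, 0.38 and 0.41 on arrays 1 to 4. Sec61g had ratios of 0.21, 0.58, 0.30 and 0.50. Both were higher in knockout on every array, with array 1 the lowest. For Sec61b the log2 normalised signal was 13.8, 13.9, 14.3 and 14.1 in knockout and 13.6, 13.45, 14.0 and 13.7 in wild type. Over the arrays Sec61b rose by 0.36 ± 0.056 (adjusted p = 0.00746 by limma) and Sec61g by 0.40 ± 0.068 (adjusted p = 0.0106 by limma). Sec61b thus stood at 1.29-fold its wild-type signal.

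Sec61a1 did not pass the test. Its ratios were -0.19, 0.026, -0.15 and 0.047, with a mean of -0.066 ± 0.056 (adjusted p = 0.468 by limma) and an interval from -0.20 to 0.065, and both of its other probes lay between -0.029 and -0.0089. Sec61b exceeded Sec61a1 by 0.43 ± 0.072 (SD, n = 4) and Sec61g exceeded it by 0.47 ± 0.062 (SD, n = 4), in the same direction on all 4 arrays. These pairs were chosen after their values were seen, so no test is attached to them. The gap was nearly the same without loess (0.43 and 0.46 with median centring), although the ratio of Sec61a1 itself then became 0.46. That could hardly be otherwise, because the probes of Sec61a1, Sec61b and Sec61g were almost equally bright (mean log2 signal 13.85, 13.87 and 13.8). A correction that depends on brightness shifts such probes alike, so the likeness is no check of the gap. The accessory translocon proteins Sec62 and Sec63, which serve post-translational transport and recruit the chaperone BiP, had ratios of 0.026 ± 0.051 and -0.023 ± 0.084, and neither passed the test. The probe of Sec62 was among the dimmest of the members, and on the scale that sets the median-centred genes to a median of 0 it became -0.32 (adjusted p = 0.00177 by limma).

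Srp19, which helps assemble the signal recognition particle, had ratios of 0.17, 0.40, 0.12 and 0.27. It was higher in knockout on all 4 arrays, with a mean of 0.24 ± 0.057 (adjusted p = 0.0323 by limma). The adjusted p was 0.0679 without array 1, 0.0706 without array 2 and 0.108 without array 4, and the call held without array 3 (adjusted p = 0.0492). It was also lost with the log ratio computed by Feature Extraction (0.19, adjusted p = 0.115). The other tested subunits were Srp72 (0.15 ± 0.061, above 0 on all 4 arrays), Srp68 (0.14 ± 0.057), Srp54a (-0.034 ± 0.072), which binds the signal peptide, and Srp9 (-0.14 ± 0.091), and none passed the test. Srp68 and Srp72, which form a pair within the particle, had adjusted p-values of 0.140 and 0.139.

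Srprb, the membrane subunit of the receptor of the particle, was below 0 on all 4 arrays with its brightest probe, at -0.16, -0.029, -0.17 and -0.026, and did not pass the test (-0.097 ± 0.049, adjusted p = 0.224 by limma). Both of its other probes did: they read -0.24 (adjusted p = 0.0288) and -0.38 (adjusted p = 0.0291) in the limma fit of single probes. The mean of its probes also passed, at -0.24. The choice of the brightest probe therefore decided this call.

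The translocon-associated protein complex, 4 membrane proteins that sit beside the channel and aid the entry of some substrates, held subunits on both sides of 0. Ssr2 had ratios of -0.018, 0.37, 0.34 and 0.41, so array 1 stood apart from the other 3. Its mean was 0.28 ± 0.075 (adjusted p = 0.0471 by limma). The call was the closest of the 6 to the threshold: it was lost without array 2, 3 or 4 (adjusted p 0.120 to 0.156), and kept without array 1 (0.38, adjusted p = 0.0163). It was also lost with the Feature Extraction log ratio (0.27, adjusted p = 0.0911), after scaling between arrays (0.29, adjusted p = 0.0602) and without background correction (0.28, adjusted p = 0.0504).

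Ssr1 was above 0 on all 4 arrays, at 0.15, 0.46, 0.082 and 0.19, and its mean of 0.22 ± 0.066 missed the threshold (adjusted p = 0.0661 by limma). It passed after scaling between arrays (adjusted p = 0.0486) and with the trended, robust fit (adjusted p = 0.0421). Its other tested probes read 0.078 (adjusted p = 0.378) and 0.087 (adjusted p = 0.453) in the limma fit of single probes. By limma the mean of its probes was 0.13 (adjusted p = 0.156), and the Feature Extraction log ratio 0.17 (adjusted p = 0.236). Ssr4 had a mean of 0.12 ± 0.065. Ssr3 went the other way: it read -0.36, -0.0028, -0.48 and -0.14, with a mean of -0.25 ± 0.080 (adjusted p = 0.0800 by limma), and both of its other probes were also below 0. Ssr2 exceeded Ssr3 by 0.52 ± 0.22 (SD, n = 4) and Ssr1 exceeded it by 0.47 ± 0.10 (SD, n = 4), on every array. These pairs too were chosen after their values were seen and carry no test.

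In the signal peptidase none of the 5 subunits passed the test. The smallest p belonged to Sec11c, 1 of the 2 alternative catalytic subunits. It read -0.59, 0.0042, -0.65 and -0.10, low on arrays 1 and 3 and near 0 on array 2, and its mean of -0.33 ± 0.11 was the most negative in ER entry (adjusted p = 0.0890 by limma). Without array 2 Sec11c passed the test. The other catalytic subunit, Sec11a, had a mean of -0.043 ± 0.050, and the accessory subunits Spcs1, Spcs2 and Spcs3 had means of 0.048, 0.12 and 0.15. Sec11a exceeded Sec11c by 0.29 ± 0.16 (SE) on average, by 0.63 and 0.51 on arrays 1 and 3 but by only 0.013 and 0.011 on arrays 2 and 4. An exact two-sided sign-flip permutation test gave p = 0.125, the smallest that 4 arrays allow, and 0.438 after adjustment over the 7 paralog pairs compared.

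COPII coats form when the small GTPase Sar1 recruits the inner Sec23 and Sec24 proteins, of which Sec24 binds the cargo. The 12 tested COPII members had a median of -0.11, and 3 of them were above 0, against 54.6% of all genes tested. Sec23a had ratios of -0.41, -0.23, -0.50 and -0.29, all below 0. Its log2 normalised signal was 7.85, 8.41, 8.25 and 8.53 in knockout and 8.26, 8.64, 8.76 and 8.82 in wild type. Sec23a fell by 0.36 on the log2 scale (SE 0.057, adjusted p = 0.00851 by limma), and it passed the test without any 1 of the arrays (adjusted p 0.0132 to 0.0379). It was the dimmest of the called members, and its second probe was also lower but did not pass (-0.15, adjusted p = 0.107).

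Sec24c had the narrowest spread among the called members, with ratios of -0.25, -0.15, -0.18 and -0.22. Its mean was -0.20 ± 0.044 (adjusted p = 0.0255 by limma), and the adjusted p was 0.0852, 0.0792 and 0.101 without arrays 1, 3 and 4. This direction depended on the normalisation: Sec24c was at 0.29 with median centring of each array in place of loess, and at 0.035 once the median of all genes was also set to 0. Sec23a stayed below 0 under both, at -0.24 and -0.49. Its probe was dim and that of Sec24c bright (mean log2 signal 8.44 and 12.66). Median centring leaves any trend with brightness in place, so this contrast is no check of either call.

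**Figure D2:**
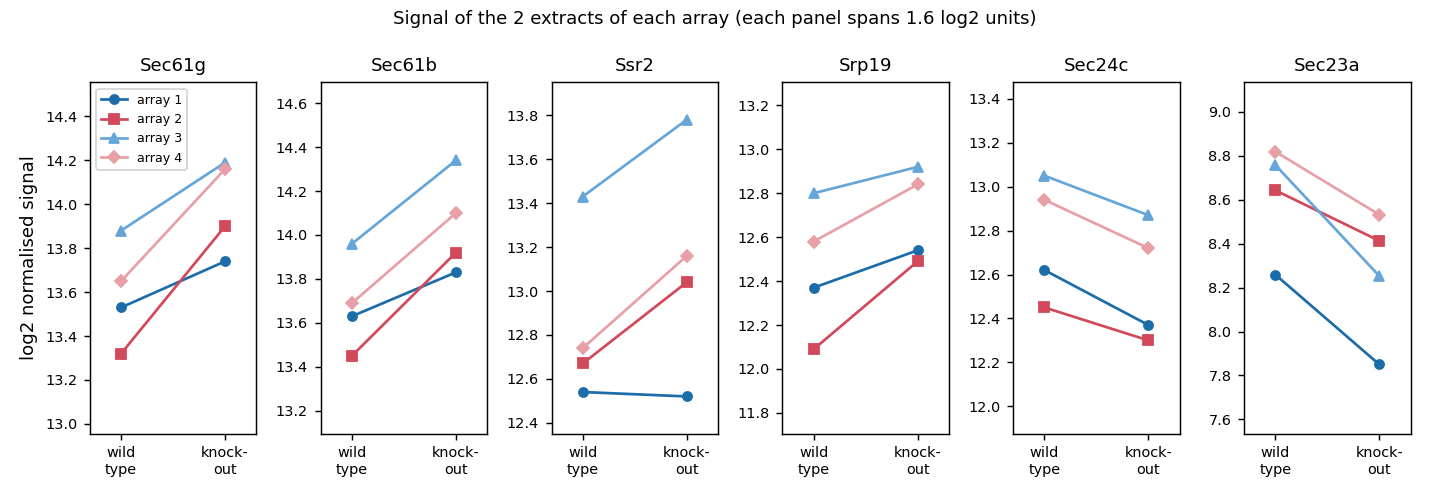
Log2 normalised signal in the wild-type and the knockout extract (2 points joined by a line for each array) for the 6 members past the threshold. The lines of Sec61g, Sec61b and Srp19 rise and those of Sec24c and Sec23a fall on all 4 arrays, whereas for Ssr2 the line of array 1 is nearly level. The panels share a span of 1.6 log2 units but not an origin.

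The other COPII coat genes did not pass the test. Sec23b, the close relative of Sec23a, read -0.34, 0.056, -0.24 and -0.25, with a mean of -0.19 ± 0.068 (adjusted p = 0.102 by limma). Sec23a lay below Sec23b by 0.17 on the log2 scale on average (-0.17 ± 0.064, SE) and on all 4 arrays. The exact sign-flip permutation test gave p = 0.125, or 0.438 adjusted, and 4 arrays cannot give less than 0.125. The difference was -0.027 with the mean of each gene's probes and -0.48 with median centring. The 2 probes differed in brightness (mean log2 signal 8.44 for Sec23a and 11.58 for Sec23b). Median centring leaves any trend with brightness in place, so -0.48 cannot be read as a larger difference between the paralogs. Sec24d (-0.21 ± 0.070, n = 3) was below 0 on each array where it was usable, and Sec24a and Sec24b had means of -0.048 and 0.017. The GTPases Sar1a and Sar1b were at -0.029 and 0.029, and Sec13, which belongs to the outer coat, was at 0.096 and above 0 on every array. For the pairs of Sar1 and of Sec24 genes and for the KDEL receptors the mean differences between paralogs were -0.065 to -0.0073, with exact permutation p-values of 0.625 to 1 before adjustment.

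Lman1 and Mcfd2 form a receptor that loads glycoproteins into COPII vesicles, and Surf4 is another cargo receptor of the early pathway. None of these passed the test with the brightest probe. Mcfd2 read -0.50, -0.0015, -0.44 and -0.13, with a mean of -0.27 ± 0.087 (adjusted p = 0.0791 by limma), while its second probe passed at -0.30 (adjusted p = 0.0226). Lman1 followed the same order of arrays, from -0.47 on array 1 to 0.026 on array 2, with a mean of -0.18 ± 0.083 (adjusted p = 0.187 by limma). Surf4 had a mean of -0.0057. Of the 29 other tested probes of the members, 24 had the sign of the brightest probe, and the 3 that passed the test were the lower ones of Mcfd2 and Srprb described above.

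In COPI, 8 of the 10 members were above 0 and the median was 0.072, but the largest mean was 0.18 and no member passed the test. Copg1 had the smallest p of the coat subunits, with ratios of 0.029, 0.30, 0.16 and 0.24, all above 0, and a mean of 0.18 ± 0.056 (adjusted p = 0.0682 by limma). It passed with the trended, robust fit (adjusted p = 0.0492), and on both median-centred scales described below. Its other tested probes read 0.055 (adjusted p = 0.541) and 0.065 (adjusted p = 0.507) in the limma fit of single probes. The mean of its probes was 0.10 (adjusted p = 0.201 by limma), and it did not pass when any 1 array was left out (adjusted p 0.0565 to 0.207). Cope was at 0.18 ± 0.061, Copb2 at 0.12, Copz1 at 0.093 and Copb1 at 0.064, while Copa was at -0.0023 and Arcn1 at -0.00049. The KDEL receptors Kdelr1, Kdelr2 and Kdelr3 had means of 0.047, 0.061 and 0.080. Kdelr2, with the smallest p of these, read -0.012, 0.14, 0.012 and 0.11 (adjusted p = 0.424 by limma). Every COPI interval lay between -0.14 and 0.32.

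The members shared an order of the arrays. Of the 42 members, 11 were above 0 on array 1, 34 of 41 on array 2, 19 on array 3 and 30 on array 4. The median of the members was -0.075, 0.14, -0.017 and 0.12 on arrays 1 to 4, whereas that of all genes stayed between 0.017 and 0.022. Among the 41 members measured on all 4 arrays, the lowest value was on array 1 for 27 and on array 3 for 13, and the highest on array 2 for 29 and on array 4 for 10. Over all genes measured on 4 arrays, each array held the lowest value for 19.3% to 30.1% of genes and the highest for 20.4% to 30.4%. Only 31% of the members kept 1 sign on all their arrays, against 39.5% of all genes. The order was not particular to the members. Among the lists of neighbouring steps described below, arrays 1 and 3 also had lower medians than arrays 2 and 4 in the following. These were the oligosaccharyltransferase (-0.00028, 0.26, 0.042 and 0.21), the tethers and SNAREs (-0.013, 0.16, 0.059 and 0.12) and the further translocation genes (-0.053, 0.10, 0.026 and 0.066). The other such lists did not show it, but the duct, islet and endothelial markers did. No test is attached to this pattern, which was seen in the same values.

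**Figure D3:**
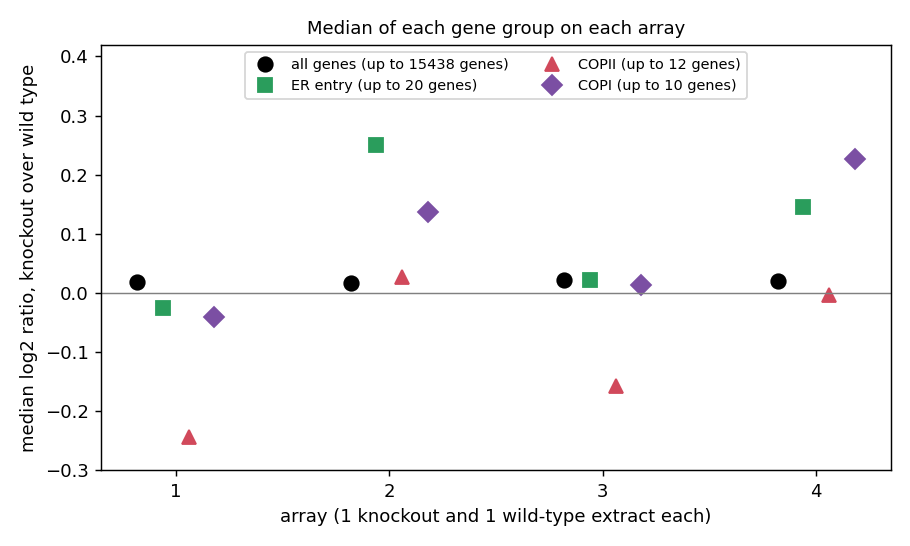
Median log2 ratio of knockout over wild type on each array, for all genes tested and for the members of ER entry, COPII and COPI. The black circles stay near 0, while ER entry runs from -0.026 on array 1 to 0.25 on array 2 and COPI from -0.041 on array 1 to 0.23 on array 4. COPII has the lowest median of the 3 member groups on every array.

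COPII kept the lowest place on each array: it lay below both ER entry and COPI on all 4, with medians of -0.24, 0.026, -0.16 and -0.0033. ER entry lay above COPI on arrays 1 to 3 but below it on array 4. ER entry had medians of -0.026, 0.25, 0.022 and 0.15, and COPI of -0.041, 0.14, 0.014 and 0.23. Markers of cell types also differed between arrays. Of the 14 acinar markers 5 were higher, among them Cel, Clps and Rbpjl, and 3 lower (Cela1, Cpb1 and Pnlip), and their medians per array were -0.10, 0.26, 0.28 and 0.31. Among them Cpa1, a carboxypeptidase zymogen, was at 0.62 ± 0.092 (adjusted p = 0.00680 by limma), and Cpb1, another, at -0.78 ± 0.17 (adjusted p = 0.0238 by limma). Ptf1a, the transcription factor that drives acinar genes, read -0.61, 0.58, -0.58 and 0.24, with the same 2 arrays low as for the members. It was not typical of its list: the acinar medians were low on array 1 but not on array 3. Xist, the RNA that coats the inactive X chromosome of female cells, read -3.91 and -4.22 on arrays 1 and 3 and -0.28 and 3.46 on arrays 2 and 4. Arrays 1 and 3 were thus the low ones here too, but Xist was highest on array 4, whereas most members were highest on array 2. Its probe was above background on 3 arrays in each channel.

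Of the islet markers 2 of 11 tested, Chga and Chgb, were lower and none higher (medians per array -0.13, -0.064, -0.17 and 0.062). Of the endothelial markers 2 of 6, Flt1 and Tek, were lower and none higher, with a median of -0.16 over the arrays, and of the mesenchymal markers 1 of 9, Pdgfrb, was higher. No duct, red cell, leukocyte or hepatocyte marker passed the test. The red cell and hepatocyte lists differed widely between arrays, the hepatocyte median from -0.42 on array 3 to 2.66 on array 1, with Alb, the gene of serum albumin, at 4.13, 2.70, -3.52 and 1.44. The part of the cell makeup and of the sex of the embryos in the members' values was not tested. In such tissue RNA, fewer cells of a type and less RNA per cell cannot be told apart.

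The direction of many members depended on the normalisation. Loess removes any trend of the ratio with brightness on each array; median centring, which only shifts each array, left the median of all genes tested at 0.26 and called 61% of them higher and 15.8% lower. Under median centring 39 of the 42 members were higher and Sec23a alone was lower, with group medians of 0.55 for ER entry, 0.28 for COPII and 0.48 for COPI. Read against the median of all genes on each array, 23 members were higher and 2 lower, while 27.4% of all genes were higher and 31% lower. The medians were then 0.30 for ER entry, 0.027 for COPII and 0.23 for COPI, and 26 of the 42 members had the same sign as with loess. Sec61b, Sec61g, Srp19 and Ssr2 were higher under all of these scales, and COPII had the lowest median of the groups under each. This likeness is no check of either, because median centring leaves any trend with brightness in place. The probes of those 4 genes were bright (mean log2 signal 12.58 to 13.87, against a median of 9.31 over all genes). COPII was the dimmest group, with a median log2 signal of 11.34, against 12.61 for ER entry and 11.99 for COPI. Which scale is nearer to the amounts of RNA was not tested.

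**Figure D4:**
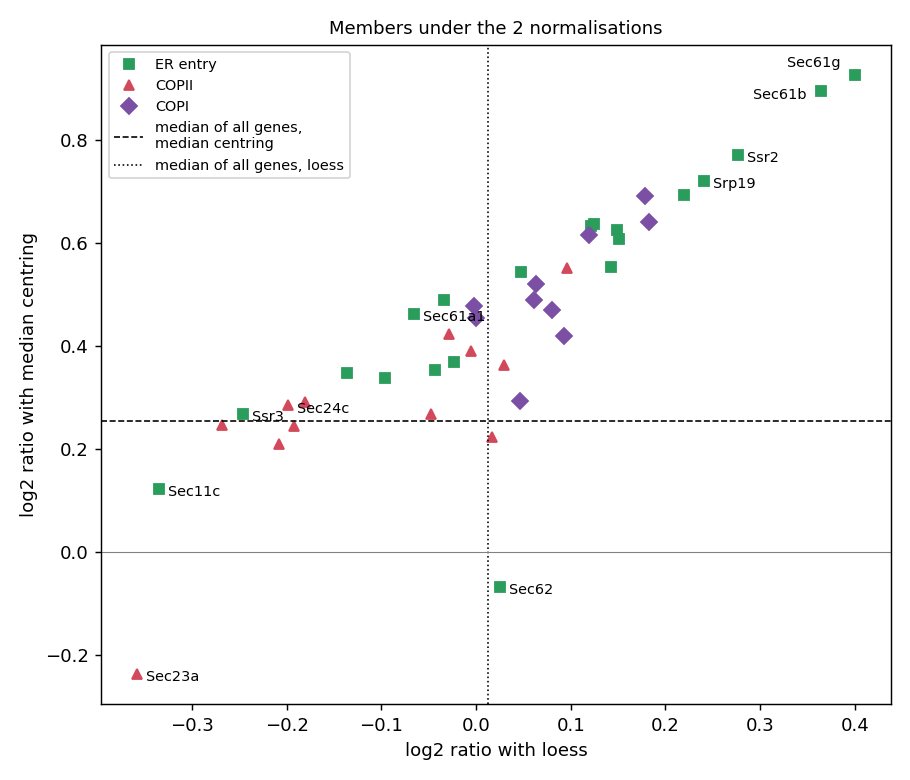
Log2 ratio of each of the 42 members with loess (horizontal axis) against that with median centring (vertical axis), with lines at the median of all genes under each. The members keep much the same order, but nearly all lie above 0 on the vertical axis and most lie above the dashed line at 0.26, with Sec23a and Sec62 below 0.

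Genes of neighbouring steps were followed in lists named by function, whose counts stand against 14.6% of all genes called. Of 10 tested further translocation genes 1 was higher: Snd1, an RNA-binding Tudor domain protein that is in the list by its name and is not an established translocation factor, at 0.34 ± 0.071 (adjusted p = 0.0199 by limma). Hspa5, the ER chaperone BiP, was at 0.24 (adjusted p = 0.0780) and Tram1, a channel neighbour, at -0.20 (adjusted p = 0.0780). In the oligosaccharyltransferase, which adds N-linked sugars as chains enter the ER, 1 of 11 was higher, Ost4 at 0.29 ± 0.061 (adjusted p = 0.0214 by limma), and Krtcap2 and Ostc were at 0.23 and 0.24 without passing. In the ER membrane complex, an insertase, 1 of 9 was lower, Emc9 at -0.32 ± 0.047 (adjusted p = 0.00640 by limma). Of 7 genes of tail-anchored protein insertion, the targeting ATPase Get3 was higher at 0.20 ± 0.047 (adjusted p = 0.0331 by limma) and the chaperone Bag6 lower at -0.46 ± 0.11 (adjusted p = 0.0356 by limma). The 2 other tested probes of Bag6 read -0.018 and 0.054, so its fall was seen with 1 probe only. Emc9 and Bag6 were at 0.039 and 0.081 with median centring, where the median of all genes was 0.26. Relative to that median they were at -0.21 (adjusted p = 0.00794) and -0.17 (adjusted p = 0.243). Emc9 passed without any 1 of the arrays. Get3 did not pass when any 1 array was left out (adjusted p 0.0514 to 0.127), nor Snd1 without array 2, 3 or 4 (0.0548 to 0.0713), Ost4 without array 3 or 4 (0.0586 and 0.0762) or Bag6 without array 1, 2 or 3 (0.0538 to 0.113). With the Feature Extraction log ratio Get3 and Bag6 did not pass (adjusted p 0.0583 and 0.0564), and Bag6 did not pass with the trended, robust fit or the mean of its probes either.

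Of 18 other COPII and exit site genes, Ergic3, a cycling membrane protein, was higher at 0.32 ± 0.066 (adjusted p = 0.0209 by limma). Of 11 other COPI and Arf genes, Copg2, the paralog of Copg1, was higher at 0.32 ± 0.072 (adjusted p = 0.0259 by limma), while its other tested probes read 0.25 (adjusted p = 0.0474) and 0.054 (adjusted p = 0.490). Without array 2, 3 or 4 Copg2 and Ergic3 did not pass (adjusted p 0.0578 to 0.0894). Tethers and SNAREs of ER to Golgi traffic had 4 of 20 higher and none lower. Among these were Bnip1 (0.27 ± 0.043), Stx18 (0.23 ± 0.046) and Use1 (0.19 ± 0.049), which belong to the SNARE complex at the ER that receives COPI vesicles from the Golgi. The fourth was Golga2, a tether of the cis-Golgi (0.17 ± 0.046, adjusted p = 0.0489 by limma). All of these were above 0 on every array. Bnip1 passed without any 1 of the arrays, Stx18 did not pass without array 1, 3 or 4 (adjusted p 0.0596 to 0.0684), and Use1 did not pass when any 1 array was left out (0.0779 to 0.157), with the Feature Extraction log ratio (0.0660) or after scaling between arrays (0.0575). Golga2 was not run under the alternatives. Of 10 transcription factors tied to secretory capacity, Atf4, which drives amino acid and stress genes, fell, with a ratio of -0.35 ± 0.074 (adjusted p = 0.0229 by limma), and lost the call without array 3 or 4 (adjusted p 0.0792 and 0.0713) and with the Feature Extraction log ratio (0.0630). It was at 0.10 with median centring and at -0.15 relative to the median of all genes, neither past the threshold. Medians of these lists lay between -0.046 and 0.16.

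Promoters were available for 35 of the 44 members, 4 of the 6 called ones among them, in a RefSeq table of the GRCm38.p6 build. The 250 bases before the start of the called members are shown first, because their genes moved in 2 directions. Capitals mark matches, on either strand, to the motifs searched: the ER stress response element, in which CCAAT and CCACG stand 9 bases apart; these parts by themselves; TGACGTGG, a site of unfolded protein response factors; and TGACGTCA, the cyclic AMP response element. Sec61b (chr4:47474411-47474660, plus strand) and Sec23a (chr12:59012018-59012267, minus strand) held none of these. Sec61g (chr11:16508485-16508734, minus strand) held CCAAT once on each strand, and Sec24c (chr14:20674071-20674320, plus strand) held CCACG on the opposite strand.
Sec61b: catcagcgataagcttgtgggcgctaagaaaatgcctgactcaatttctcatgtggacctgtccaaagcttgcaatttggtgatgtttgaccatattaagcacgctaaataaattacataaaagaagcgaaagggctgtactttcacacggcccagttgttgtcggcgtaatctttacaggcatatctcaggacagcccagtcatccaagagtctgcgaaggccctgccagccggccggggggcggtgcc
Sec61g: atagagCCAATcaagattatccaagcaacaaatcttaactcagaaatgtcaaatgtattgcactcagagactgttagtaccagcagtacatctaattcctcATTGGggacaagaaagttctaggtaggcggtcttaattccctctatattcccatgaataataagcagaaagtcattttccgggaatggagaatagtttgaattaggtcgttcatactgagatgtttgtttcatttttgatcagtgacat
Sec23a: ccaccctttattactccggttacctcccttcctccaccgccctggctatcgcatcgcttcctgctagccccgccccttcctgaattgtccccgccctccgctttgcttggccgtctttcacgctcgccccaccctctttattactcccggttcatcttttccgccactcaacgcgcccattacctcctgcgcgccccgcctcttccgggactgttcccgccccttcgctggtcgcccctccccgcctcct
Sec24c: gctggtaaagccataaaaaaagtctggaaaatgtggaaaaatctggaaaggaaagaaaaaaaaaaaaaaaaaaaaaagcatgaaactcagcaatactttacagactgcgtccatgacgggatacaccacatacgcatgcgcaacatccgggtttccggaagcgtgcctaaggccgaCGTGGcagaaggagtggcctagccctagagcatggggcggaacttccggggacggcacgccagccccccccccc

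The full ER stress response element was found in 0 of the 35 members and in 0.13% of the promoters of 27025 genes. CCACG was found in 18 members (51.4%, against 31% of all promoters) and CCAAT in 9 (25.7%, against 37.5%). TGACGTCA was found in Cope alone (2.86%, against 1.77%). TGACGTGG was found in 3 members (8.57%, against 0.603%): Sec24d (chr3:123267436-123267495, plus strand), Copb1 (chr7:114254681-114254740, minus strand) and Kdelr3 (chr15:79516348-79516407, plus strand). These are shown because the site lies within 30 bases of the start in each. TGACGTGG contains the reverse complement of CCACG, so each of its matches is also counted for CCACG.
Sec24d: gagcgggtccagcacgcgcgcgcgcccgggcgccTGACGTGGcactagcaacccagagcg
Copb1: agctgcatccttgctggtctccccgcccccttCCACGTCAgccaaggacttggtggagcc
Kdelr3: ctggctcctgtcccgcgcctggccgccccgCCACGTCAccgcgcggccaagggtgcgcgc
Their genes did not move together: Sec24d was at -0.21 (n = 3), Copb1 at 0.064 and Kdelr3 at 0.080, and none passed the test. A match in these windows is a description of the letters and not a measured site.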

How the data were processed

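Per the labels' protocols, 20 µg of total RNA per extract were reverse transcribed from oligo(dT) and coupled to a red or a green Alexa dye. The submitters' processing notes name Agilent Feature Extraction, version 10.5.1.1, as the authors' software. Each deposited file gives, per the file headers, median intensity and background of every spot in both colours, processed intensities and a log10 ratio (red to green). This deposited log10 value equalled the ratio of processed signals within 0.001 for 90.7% of spots.

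Median intensities, used in place of mean ones because the files list the medians, were corrected by normexp (offset 50) and loess in limma 3.58.1 (R 4.3.3). Control spots had weight 0 and non-uniform spots were left out. Probes well above background in 1 channel on at least 3 of 4 arrays were kept, giving 15523 genes, 600 of them measured on 3 arrays. Symbols came from the transcript accession, without version, through a RefSeq table (25097 of 41174 probes). Ratios were tested against 0 with limma's moderated test and Benjamini-Hochberg adjustment over all genes, at 0.05, and the labels call the arrays biological replicates. All arrays were on 1 slide. The scripts were checked on simulated data with known changes.

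The members and lists were chosen with earlier results of these data known. Values on every array are given for called members and for the member of smallest p in roles without a call, and up to 3 genes of smallest p are named per pathway list. Golga2, the marker genes given by name and the promoter examples were named after their values were seen, and 1 called marker is not reported here. Alternatives were median centring, the Feature Extraction log ratio, no background correction, scaling between arrays, other filters, the mean of a gene's probes, single probes, trended robust variance and leaving out each array. Median centring relative to the median of all genes was added after seeing the data. The number of arrays limits the precision.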

Additional observations from a re-analysis of the deposited data

Results flagged for a closer look

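Of 75 values checked for 1 array far from the other 3, 3 stood out, each because its gap to the nearest other array, as a share of the whole range, passed Dixon's critical value. Chance alone marks about 1 in 20 such groups of 4. Srp54a read 0.243 on array 2 and -0.157 to -0.105 on the others. Ssr2 read -0.018 on array 1 and 0.342 to 0.415 on the others, and it is a called member. Ubl4a, of tail-anchored protein insertion, read 0.143 on array 3 and 0.0807 to 0.0882 on the others.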

How the results depend on the processing

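Sec61b, Sec61g and Sec23a kept their direction and passed the threshold in each setting run, except that the second probe of Sec23a did not pass. The median-centred scales are no check of this, because they leave any trend with brightness in place. Leaving out 1 array gave 963 to 1627 genes past the threshold, 2 to 4 members higher and 1 to 6 lower; the 6 came without array 2, where Mcfd2, Sec11c, Sec23b and Ssr3 passed. The counts of 2 members higher came without array 2 and without array 4, and 1 member lower without array 1, 3 or 4. The Feature Extraction log ratio gave 2 members higher, and the mean of a gene's probes 4 lower and a difference of Sec23a minus Sec23b of -0.027. Median centring gave 11921 genes, 39 members higher and 1 lower, medians of 0.46 for the members, 0.55 for ER entry, 0.28 for COPII and 0.48 for COPI, and differences of -0.48 for Sec23a minus Sec23b and -0.20 for Kdelr1 minus Kdelr2; the last 2 were the same relative to the median of all genes. That scale gave 9064 genes, 23 members higher, and medians of 0.21, 0.30, 0.027 and 0.23. The cause was not tested.

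With median centring these, 18 members among them, turned from below to above 0: Arcn1 0.45, Atf4 0.10, Atf6b 0.20, Bag6 0.081, Copa 0.48, Creb3l3 0.36, Emc1 0.42, Emc9 0.039, Lman1 0.29, Mcfd2 0.25, Sar1a 0.42, Sec11a 0.35, Sec11c 0.12, Sec23b 0.25, Sec24a 0.27, Sec24c 0.29, Sec24d 0.21, Sec61a1 0.46, Sec63 0.37, Srp54a 0.49, Srp9 0.35, Srprb 0.34, Ssr3 0.27, Surf4 0.39 and Tram1 0.22. Relative to the median of all genes, Arcn1 0.20, Copa 0.23, Emc1 0.17, Sar1a 0.17, Sec24c 0.035, Sec61a1 0.21, Srp54a 0.24, Sec62 -0.32, Sec63 0.12, Srp9 0.098, Srprb 0.088, Ssr3 0.019, Sec11a 0.10, Sec24a 0.018, Sec24b -0.026, Lman1 0.042, Surf4 0.14, Creb3l3 0.115 and Emc2 -0.15 changed sign. With 1 other probe each, Bag6 (0.054), Arcn1 (0.0071), Copa (0.12), Emc1 (0.13), Sec11a (0.016), Sec63 (0.035) and Spcs3 (-0.036) also changed sign. No paired analysis was possible because the arrays form 1 group, in which the pairing of the extracts is already inside each ratio.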
